A study of Mus musculus with 13 samples.

Results

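The genes examined here encode 10 receptors and receptor-like proteins of the lining cells of the liver sinusoids, many of which take up material from the blood: Stab1, Stab2, Mrc1, Lyve1, Fcgr2b, Cd209b, Clec4g, Clec1b, Scarb1 and Oit3. They were taken by gene symbol from the deposited count table, which holds 24421 symbols. All 10 were present, and all 10 were among the 13915 genes abundant enough to be tested. Liver endothelial cells of wild-type mice had been profiled by bulk RNA sequencing in 13 libraries, 7 from conventionally raised animals with a normal microbiota (CONV-R, libraries 1 to 7) and 6 from germ-free animals, which carry no live microbes (GF, libraries 8 to 13). Strain, sex, age, litter and the way the cells were purified are not given in the labels. Nor do these state that every library came from its own mouse, and p-values therefore reflect only how far the libraries of a group lie apart, which may be partly technical.

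Sinusoidal endothelial cells form a fenestrated, highly endocytic wall that removes waste macromolecules from the portal and arterial blood. Their scavenger receptors bind ligands such as hyaluronan, modified lipoproteins, collagen chains, mannose-ended glycoproteins and small immune complexes. The receptors pass through clathrin-coated pits into endosomes, where ligand and receptor part, and many receptors then return to the surface.

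Of the 10 genes, 4 were higher in GF (Lyve1, Oit3, Stab2 and Mrc1) and 0 were lower, by edgeR's quasi-likelihood test with Benjamini-Hochberg adjustment over all genes tested and a threshold of 0.05. Over all genes tested, 11.4% were called higher and 12.7% lower. At an unadjusted p under 0.05, 6 of the 10 were higher and 0 lower, beside 18.7% and 20.2% of all genes. DESeq2 called 5 higher and 0 lower (12.2% and 14.6% of all genes) and so did limma-voom (13.7% and 11.8%). With 1 library left out, 4 were called without CONV-R 1 or 4, 3 without CONV-R 3, and 2 (Lyve1 and Oit3) without any other of the 13. The median log2 fold change of the 10 (GF over CONV-R) was 0.32, beside -0.01 for all genes tested. For 3 of the 10 (Lyve1, Oit3 and Mrc1) the whole GF range lay above the whole CONV-R range, which was the case for 5.94% of all genes tested.

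**Figure D1:**
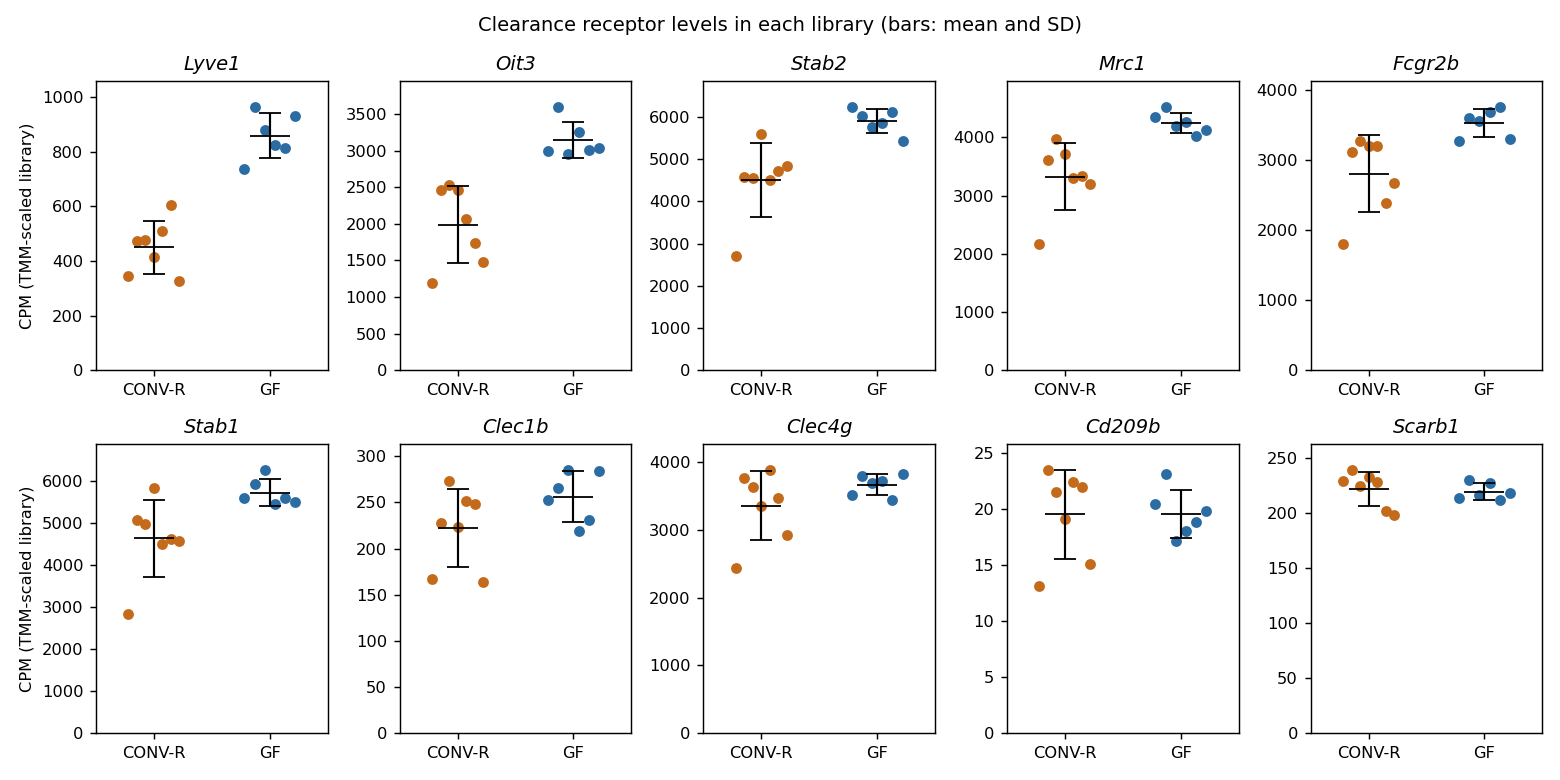
Level of each receptor gene in CPM on the vertical axis, 1 point per library, in 7 CONV-R and 6 GF libraries, with bars for the mean and SD. The groups stand apart for Lyve1, Oit3 and Mrc1 and lie on top of each other for Cd209b and Scarb1, and the lowest CONV-R point of Stab2 (2701 CPM) and of Mrc1 (2161 CPM) is library 1.

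Among the hyaluronan receptors, Lyve1 changed most. It encodes the lymphatic vessel endothelial hyaluronan receptor, which in the liver is also made by sinusoidal endothelium. Lyve1 ranged from 325 to 604 CPM in CONV-R with a median of 473, and from 738 to 963 in GF with a median of 853. CPM is the count scaled to library size, here after TMM normalisation. The 2 ranges did not overlap, and Lyve1 rose 1.91-fold (log2 fold change 0.93 ± 0.13 SE, 95% interval 0.65 to 1.22, edgeR adjusted p = 5.41e-04). Its call was kept whichever library was left out, with log2 fold changes from 0.86 to 1.002.

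Stab2 encodes stabilin-2, the main endocytic receptor of the liver for hyaluronan and other glycosaminoglycans. It ranged from 2701 to 5590 CPM in CONV-R with a median of 4570, and from 5417 to 6226 in GF with a median of 5941. All but 1 of the 6 GF values exceeded the highest CONV-R value, that of library 4. Stab2 rose 1.31-fold (0.39 ± 0.13, 95% interval 0.11 to 0.68, edgeR adjusted p = 0.0468), close to the threshold. Leaving out 1 library at a time, the call held without CONV-R 1 or 4 only, and in the other 11 cases the adjusted p was at least 0.0564 and at most 0.0985.

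Stab1 encodes stabilin-1, the related scavenger receptor for acetylated low-density lipoprotein and extracellular matrix proteins. It ranged from 2835 to 5843 CPM in CONV-R with a median of 4626, and from 5442 to 6264 in GF with a median of 5591. Here 2 of 6 GF values exceeded the highest CONV-R value. The log2 fold change of Stab1, 0.30 ± 0.13 (95% interval 0.02 to 0.59), did not pass the threshold (edgeR adjusted p = 0.109).

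Mrc1 encodes the mannose receptor, which clears mannose-, fucose- and N-acetylglucosamine-ended glycoproteins and collagen chains. It ranged from 2161 to 3966 CPM in CONV-R with a median of 3333, and from 4031 to 4516 in GF with a median of 4232. The ranges came close but did not meet, and they overlapped in CPM of the unscaled library total (2332 to 4000.4 for CONV-R, 3933 to 4229 for GF). Mrc1 rose 1.28-fold (0.35 ± 0.12, 95% interval 0.10 to 0.61, edgeR adjusted p = 0.0460), and the call held only without CONV-R 1, 3 or 4, and was lost in the other 10 cases (adjusted p at least 0.0567 and at most 0.109).

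Fcgr2b encodes the inhibitory Fc gamma receptor, by which sinusoidal endothelium takes up small immune complexes and which B cells and macrophages also carry. It ranged from 1799 to 3274 CPM in CONV-R with a median of 3115, and from 3274 to 3748 in GF with a median of 3577. The lowest GF library reached just short of the highest CONV-R library, and the other 5 lay above all of CONV-R. Fcgr2b had a log2 fold change of 0.33 ± 0.13 (95% interval 0.05 to 0.61) that did not pass edgeR's threshold (adjusted p = 0.0781), whereas DESeq2 (adjusted p = 0.0443) and limma-voom (adjusted p = 0.0483) called it.

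Oit3 encodes a zona pellucida domain protein that marks sinusoidal endothelium and is not an established clearance receptor. It ranged from 1196 to 2530 CPM in CONV-R with a median of 2062, and from 2953 to 3594 in GF with a median of 3027. All GF libraries lay above all CONV-R libraries, and the CONV-R libraries themselves were spread over a wide range. Oit3 rose 1.58-fold (0.66 ± 0.16, 95% interval 0.31 to 1.01, edgeR adjusted p = 0.0127), and the call was kept whichever library was left out, at log2 fold changes from 0.55 to 0.72.

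The 3 C-type lectin receptor genes gave no call. Clec4g encodes LSECtin, a lectin of liver and lymph node sinusoids, with CONV-R between 2436 and 3887 CPM (median 3478) and GF between 3443 and 3826 (median 3710.1; 0.13 ± 0.11, 95% interval -0.10 to 0.36, edgeR adjusted p = 0.398). Clec1b encodes CLEC-2, the podoplanin receptor best known from platelets, with CONV-R between 164 and 273 CPM (median 227) and GF between 220 and 285 (median 259; 0.21 ± 0.12, 95% interval -0.06 to 0.47, edgeR adjusted p = 0.229). Cd209b encodes SIGN-R1, a mouse relative of DC-SIGN, and was far less abundant, with CONV-R between 13.1 and 23.5 CPM (median 21.5) and GF between 17.1 and 23.1 (median 19.3; 0.00 ± 0.13, 95% interval -0.28 to 0.28, edgeR adjusted p = 0.993). The groups overlapped in all 3, with 2 GF values of Clec1b above the highest of CONV-R and none of Clec4g or Cd209b, and the intervals leave room for changes in either direction.

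Scarb1 encodes scavenger receptor BI, the receptor for high-density lipoprotein (HDL). The CONV-R libraries lay between 199 and 239 CPM (median 228) and the GF libraries between 212 and 230 (median 218), so that the GF range fell inside that of CONV-R. Its log2 fold change of -0.02 ± 0.06 had the narrowest interval of the 10 genes (-0.14 to 0.11, edgeR adjusted p = 0.858).

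The levels of different genes were compared as RPKM, the CPM value divided by the kilobases of merged exon. In GF, Clec4g stood highest at 1489 ± 62.9 (mean ± SD, n = 6), followed by Oit3 at 1127 ± 88.2. Stab2 (674 ± 32.9), Mrc1 (666 ± 26.9), Fcgr2b (609 ± 33.8) and Stab1 (556 ± 30.7) formed a group in which each gene's range over libraries overlapped that of the next. Lyve1 at 294 ± 28.2, Clec1b at 50.2 ± 5.36, Scarb1 at 25.8 ± 0.87 and Cd209b at 9.24 ± 0.999 followed, each below the range of the gene before it. In CONV-R the order was the same except that Mrc1 (522 ± 91.0, n = 7) stood before Stab2 (513 ± 99.8, n = 7), and there Oit3 at 714 ± 190 (n = 7) overlapped both. Lyve1 stood at 154 ± 33.2 (n = 7) in CONV-R, also below the range of Stab1 and above that of Clec1b.

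**Figure D2:**
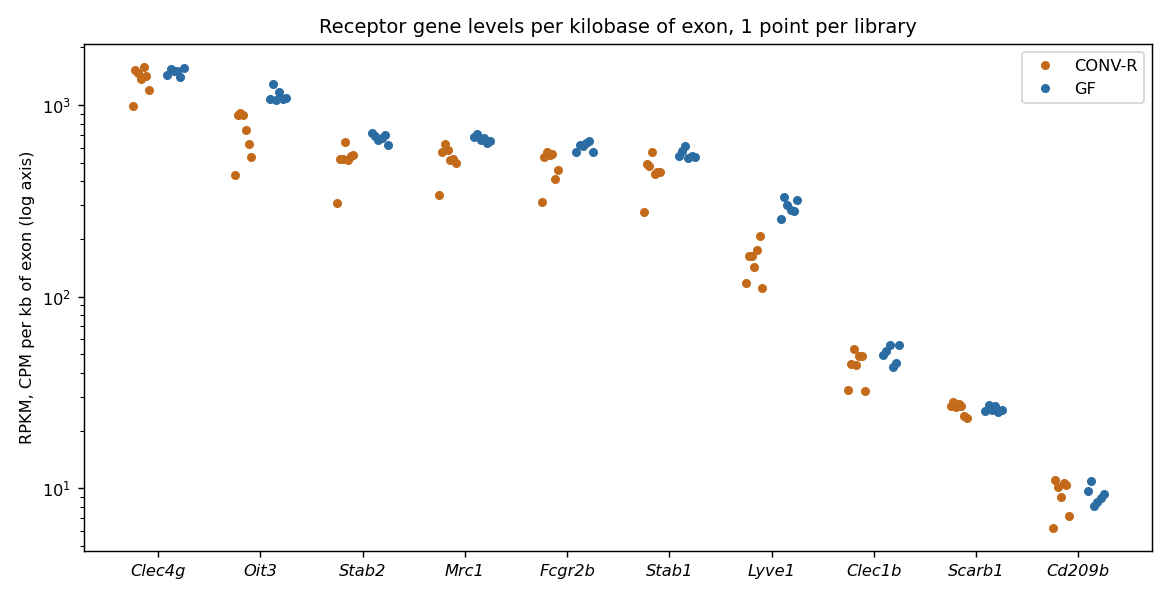
RPKM (CPM per kilobase of merged exon, log axis) of the 10 receptor genes, ordered by their GF mean, 1 point per library. Clec4g leads in both groups, Stab2, Mrc1, Fcgr2b and Stab1 overlap, and Cd209b is lowest at 9.24 in GF.

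In GENCODE M21 on the mouse build GRCm38 all 10 are protein-coding genes, and counts are summed over each whole gene. Stab1 lies at chr14:31139013-31168641, Stab2 at chr10:86841198-87008025, Lyve1 at chr7:110850607-110863239, Oit3 at chr10:59422958-59441778 and Scarb1 at chr5:125277087-125341094, all on the minus strand. Fcgr2b lies at chr1:170958617-170976547, and Clec4g (chr8:3707064-3720651) and Cd209b (chr8:3917655-3926844) lie near each other, also on the minus strand. Mrc1 (chr2:14229392-14332057) and Clec1b (chr6:129397297-129409335) lie on the plus strand. Clec1b shares 184 exonic bases with Clec9a, a dendritic cell lectin gene on the same strand, and reads there could go to either gene or to neither. Stab1 shares 112 bases with Nt5dc2 on the other strand, and Stab2, Fcgr2b and Clec4g overlap annotated antisense genes by 141 to 155 bases. The strand setting of the counting is not given in the sources used here.

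The ratio of 2 genes within a library does not depend on how libraries are scaled. All 45 pairs were compared by exact two-sided permutation tests (1716 arrangements, smallest p 5.83e-04), adjusted over the 45 pairs, and 24 passed. Of these, 21 passed whichever library was left out. Pairs of other genes were not compared, so these counts have no background, and pairs that share a gene are not independent. Lyve1 differed from 8 of the other 9 genes. Lyve1 counts per 100 Stab2 counts ranged from 6.75 to 12.8 in CONV-R with a median of 10.5, and from 11.9 to 17.2 in GF with a median of 14.7. The log2 ratio of Stab2 to Lyve1 fell by 0.53 (exact adjusted p = 0.0144) and that of Stab1 to Lyve1 fell by 0.62 (exact adjusted p = 0.00874). The log2 ratio of Lyve1 to Clec4g rose by 0.81 and that of Lyve1 to Scarb1 by 0.97 (exact adjusted p = 0.00656 for each). The difference of 0.25 for Lyve1 to Oit3 did not pass (exact adjusted p = 0.191).

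None of the 6 pairs among Stab1, Stab2, Mrc1 and Fcgr2b passed. Mrc1 counts per 100 Stab2 counts had a median of 73.1 in CONV-R (66.1 to 87.1) and 72.8 in GF (66.0 to 76.0). The log2 ratio of Stab1 to Stab2 differed by -0.09 (exact permutation adjusted p = 0.170), that of Mrc1 to Fcgr2b by 0.02 (exact adjusted p = 0.813) and that of Stab2 to Fcgr2b by 0.06 (exact adjusted p = 0.541). The log2 ratio to Scarb1 rose for each of these 4 genes, by 0.35 for Stab1 (exact adjusted p = 0.0131), 0.43 for Stab2 (0.0112), 0.39 for Mrc1 (0.00656) and 0.37 for Fcgr2b (0.00787). The log2 ratio to Oit3 fell by 0.37 for Stab1 (exact adjusted p = 0.0122), by 0.33 for Mrc1 (0.00874) and by 0.35 for Fcgr2b (0.00656), whereas the -0.28 for Stab2 did not pass (0.0767).

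Because none of the pairs among those 4 genes passed, the 250 bases before their annotated starts are printed here from RefSeq (GRCm38.p6), read 5′ to 3′ on the gene's own strand. Capitals mark matches to 6 short motifs searched on both strands. The Stab1 stretch is chr14:31168642-31168891 (minus strand), that of Stab2 chr10:87007943-87008192 (minus strand), that of Mrc1 chr2:14229164-14229413 (plus strand) and that of Fcgr2b chr1:170976072-170976321 (minus strand).
Stab1: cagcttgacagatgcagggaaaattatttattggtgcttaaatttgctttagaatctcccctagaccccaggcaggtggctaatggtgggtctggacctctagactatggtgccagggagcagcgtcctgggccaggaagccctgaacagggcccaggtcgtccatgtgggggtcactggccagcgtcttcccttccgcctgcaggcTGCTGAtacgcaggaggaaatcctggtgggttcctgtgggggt
Stab2: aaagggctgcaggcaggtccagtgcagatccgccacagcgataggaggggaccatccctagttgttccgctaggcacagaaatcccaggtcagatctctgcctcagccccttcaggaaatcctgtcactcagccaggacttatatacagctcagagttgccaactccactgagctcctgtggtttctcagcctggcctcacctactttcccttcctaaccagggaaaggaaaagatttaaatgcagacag
Mrc1: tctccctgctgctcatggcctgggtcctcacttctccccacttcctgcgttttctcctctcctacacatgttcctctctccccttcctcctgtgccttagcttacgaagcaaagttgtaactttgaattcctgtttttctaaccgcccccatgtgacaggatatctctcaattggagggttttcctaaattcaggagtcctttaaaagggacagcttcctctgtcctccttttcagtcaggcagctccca
Fcgr2b: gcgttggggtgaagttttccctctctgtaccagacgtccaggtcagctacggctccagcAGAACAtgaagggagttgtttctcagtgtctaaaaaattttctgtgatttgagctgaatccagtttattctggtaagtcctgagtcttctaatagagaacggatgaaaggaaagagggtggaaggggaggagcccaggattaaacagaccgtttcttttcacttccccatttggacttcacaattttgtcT

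The motif of GATA factors was searched as AGATAA, that of MAF factors as TGCTGA, that of ETS factors as CCGGAAG, the E-box of MiT factors as CACGTG, the core of the glucocorticoid receptor site as AGAACA and that of KLF factors as GGGTGTGG. Windows ran from 250 bases before to 50 after the start. The table held promoters of 7 of the 10 genes, not of Lyve1, Oit3 or Scarb1. Stab1 had a MAF match 43 bases before its start. Fcgr2b had a glucocorticoid receptor match 191 bases before its start and a reversed one (TGTTCT) that begins at the last base before it, the capital T that ends the printed stretch. Stab2, Mrc1 and Clec4g matched none of the 6, Cd209b had an ETS match 39 bases before its start, and Clec1b a GATA match 38 bases after it. Among all 32851 promoters of that table, 19.5% held the MAF motif, 19% the glucocorticoid receptor motif, 11.2% the GATA motif, 8.86% the ETS motif, 7.15% the E-box and 3.56% the KLF motif. These are matches of letters and not binding sites.

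The share of all counts that fell on the 10 genes was 1.498% in CONV-R library 1, 2.13% to 2.55% in the other CONV-R libraries and 2.58% to 2.74% in GF. Library 1 was the lowest of all for 7 of the 10 genes. For every one of the 10 the spread between libraries was larger in CONV-R, with SDs of log2 CPM from 0.10 (Scarb1) to 0.42 (Oit3), than in GF, where they lay between 0.05 and 0.16. Total counts per library lay between 7590320 and 32869515 for CONV-R and between 23407168 and 35478115 for GF.

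Marker genes of cell types were summed for each library, as CPM of the unscaled total, and compared by exact two-sided permutation tests adjusted over 13 lists, none of which holds any of the 10 receptor genes. Pan-endothelial markers (Pecam1, Cdh5 and 8 others) stood at 10698 ± 1828 in CONV-R (n = 7) and 12912 ± 338 in GF (n = 6, exact adjusted p = 0.0242). CONV-R library 1 held 7497 of them, the other CONV-R libraries 9265 to 12503 and the GF libraries 12641 to 13495. Other sinusoidal markers, among them Gpr182 and Dnase1l3, stood at 23246 ± 3898 and 25409 ± 1456 (exact adjusted p = 0.342). Gene by gene, 3 of these 14 were called higher and 0 lower, beside 11.4% and 12.7% of all genes. They were Gpr182 (0.45 ± 0.12, edgeR adjusted p = 0.0149), Flt4 (0.49 ± 0.16, adjusted p = 0.0447) and Wnt2 (0.88 ± 0.17, adjusted p = 0.00412). Hepatocyte markers stood at 4863 ± 3265 and 1210 ± 211 (exact adjusted p = 0.0126), and library 1 was again at the end with 9954. Scarb1 counts per 100 pan-endothelial counts were also highest in library 1, at 3.30. They lay between 1.861 and 2.245 in the other CONV-R libraries and between 1.597 and 1.664 in GF. With the hepatocyte marker sum as a covariate, Scarb1 stood at -0.07 ± 0.09 (edgeR adjusted p = 0.716). The ratios to Scarb1 given above were not adjusted for hepatocyte markers. In bulk RNA, fewer cells of a type and less RNA per cell cannot be told apart. Apart from the scaling and covariate fits given below, the part of these levels in the receptor results was not tested.

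Kupffer cells and other macrophages, which also make Mrc1, Fcgr2b and Stab1, gave summed markers of 6980 ± 2643 in CONV-R and 4595 ± 608 in GF (exact adjusted p = 0.107). With the summed Kupffer markers as a covariate, none of these 3 genes was called. The log2 fold change was then 0.22 ± 0.12 for Mrc1 (edgeR adjusted p = 0.292), 0.15 ± 0.14 for Stab1 (adjusted p = 0.536) and 0.20 ± 0.14 for Fcgr2b (adjusted p = 0.411). Beyond this fit, the part of macrophages in these values was not tested. The defining Kupffer cell genes Clec4f (616 to 1819 CPM in CONV-R, 482 to 901 in GF), Vsig4 (166 to 520 and 146 to 231) and Cd163 (150 to 444 and 123 to 289) were all present. B and plasma cell markers, of cells that also make Fcgr2b, stood at 348 ± 692 and 33.8 ± 7.24 (exact adjusted p = 0.00758), with 1918 in CONV-R library 1, where Fcgr2b was lowest. Lymphatic markers other than Lyve1, nearly all of them counts of Flt4, stood at 1658 ± 394 and 2184 ± 171 (exact adjusted p = 0.0242), beside the rise of Lyve1. Flt4 is also on the list of sinusoidal markers, so this sum is not particular to lymphatic cells. Of the defining lymphatic genes, Prox1 lay between 2.25 and 4.48 CPM (CONV-R) and 3.59 and 6.16 (GF), Pdpn between 0.11 and 0.68 and between 0.45 and 3.76, and Ccl21a was at 0 counts in all libraries. Of the 5 lymphatic markers tested, 3 were called higher, beside 11.4% of all genes, each close to the threshold. These were Prox1 (0.55 ± 0.18, edgeR adjusted p = 0.0441), Pdpn (1.81 ± 0.59, adjusted p = 0.0411) and Flt4 (0.49 ± 0.16, adjusted p = 0.0447). The Pdpn call was lost in 7 of 13 cases of 1 library left out (adjusted p up to 0.129). Reln (0.22 ± 0.32, adjusted p = 0.642) and Mmrn1 (-0.02 ± 0.31, adjusted p = 0.975) were not called. Platelets, which make Clec1b, gave markers of 37.7 ± 10.9 and 32.2 ± 3.96 (exact adjusted p = 0.408), with Pf4 at 7.33 to 12.6 and 6.89 to 14.8.

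Of the remaining lists, neutrophil and monocyte markers stood at 803 ± 766 in CONV-R and 110 ± 33.3 in GF (exact adjusted p = 0.00758) and cholangiocyte markers at 136 ± 90.1 and 293 ± 94.98 (exact adjusted p = 0.0316). The others did not pass. These were continuous endothelium (1298 ± 234 and 1545 ± 169, exact adjusted p = 0.107), T and NK cells (88.0 ± 65.9 and 76.4 ± 50.6, exact adjusted p = 0.610), dendritic cells (260 ± 65.4 and 233 ± 29.2, exact adjusted p = 0.505) and stellate cells with fibroblasts (87.6 ± 35.6 and 128 ± 122, exact adjusted p = 0.600).

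**Figure D3:**
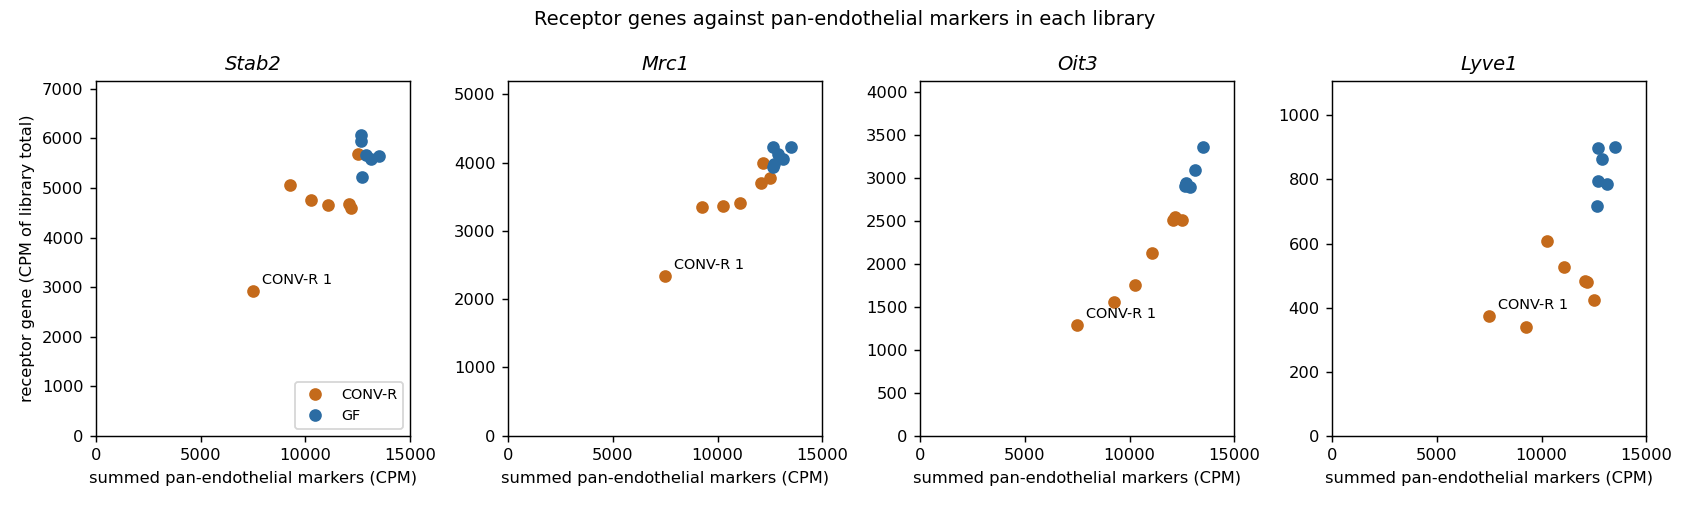
Stab2, Mrc1, Oit3 and Lyve1 (vertical axis, CPM of the unscaled library total) against the summed pan-endothelial markers of the same library (horizontal axis, CPM), 1 point per library. CONV-R library 1 has the lowest marker sum (7497), and the Lyve1 values of the CONV-R libraries lie below those of GF at like marker sums.

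Scaling each library by its pan-endothelial marker counts in place of TMM changed the picture for most of the 10 genes. Over all genes the median log2 fold change then moved from -0.01 to -0.42, and 2.39% of all genes were called higher and 52.9% lower. Rescaling shifts every gene by about the same amount. By construction, each receptor gene therefore kept about its distance from that median (Lyve1 0.97 above it, Oit3 0.73, Stab2 0.44). Lyve1 (0.55 ± 0.12, edgeR adjusted p = 0.00564) and Oit3 (0.31 ± 0.07, adjusted p = 0.00540) were still called higher. Stab2 stood at 0.02 ± 0.09, and Mrc1 (-0.02 ± 0.05), Fcgr2b (-0.03 ± 0.07), Stab1 (-0.06 ± 0.07) and Clec1b (-0.17 ± 0.10) were at or below 0 without a call. Cd209b (-0.36 ± 0.11, adjusted p = 0.0152), Clec4g (-0.25 ± 0.07, adjusted p = 0.0117) and Scarb1 (-0.43 ± 0.12, adjusted p = 0.0141) were called lower. Per 100 pan-endothelial counts there were 43.4 ± 5.99 counts of Stab2 in CONV-R (n = 7) and 44.1 ± 2.80 in GF (n = 6), 18.9 ± 1.81 and 23.4 ± 0.82 of Oit3, and 4.38 ± 0.89 and 6.40 ± 0.52 of Lyve1. With the hepatocyte marker sum as a covariate, whose ranges do not overlap between the groups, Lyve1 stood at 0.67 ± 0.20 (edgeR adjusted p = 0.0843) and Oit3 at 0.08 ± 0.16 (adjusted p = 0.841), and neither was called. With the Kupffer marker sum as a covariate Lyve1 stood at 0.997 ± 0.16 (adjusted p = 0.00259) and Oit3 at 0.45 ± 0.16 (adjusted p = 0.102).

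CONV-R libraries 2, 3 and 4 held 12090, 12186 and 12503 CPM of pan-endothelial markers, just below the GF range. Per 100 of these marker counts, the 3 libraries held 4.00, 3.95 and 3.38 counts of Lyve1, against 5.69 to 7.08 in GF, and 20.8, 20.94 and 20.07 of Oit3, against 22.5 to 24.9. They held 30.6, 32.8 and 30.2 of Mrc1, against 30.9 to 33.4 in GF, and 38.6, 37.7 and 45.5 of Stab2, against 41.3 to 47.95, so that the groups overlapped for these 2 genes. CONV-R library 6, with a lower marker sum, held 5.94 counts of Lyve1, inside the GF range.

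Without CONV-R library 1 the same 4 genes were called higher and 0 lower, beside 10.1% of all genes higher and 12.6% lower in that fit. Lyve1 then stood at 0.86 ± 0.12 (edgeR adjusted p = 4.58e-04), Oit3 at 0.55 ± 0.13 (adjusted p = 0.00832), Stab2 at 0.29 ± 0.07 (adjusted p = 0.0149) and Mrc1 at 0.26 ± 0.07 (adjusted p = 0.0198). Library names carry a code number, which is 10 in CONV-R libraries 1 to 4, 9 in the other 3 and 6 in every GF library, and whose meaning is not stated. Since no number occurs in both groups, the code and the group cannot be told apart. Against the number 10 libraries alone 1 gene, Lyve1, was called higher (1.005 ± 0.12, edgeR adjusted p = 0.00113, with 6.89% of all genes called higher), and Oit3 stood at 0.54 ± 0.20 (adjusted p = 0.0906), Stab2 at 0.44 ± 0.18 (adjusted p = 0.118) and Mrc1 at 0.34 ± 0.16 (adjusted p = 0.174). Against the number 9 libraries alone 6 were called higher (16.2% of all genes): Oit3 at 0.82 ± 0.11, Lyve1 at 0.83 ± 0.17, Mrc1 at 0.36 ± 0.07, Fcgr2b at 0.35 ± 0.10, Stab2 at 0.32 ± 0.07 and Stab1 at 0.31 ± 0.07.

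**Figure D4:**
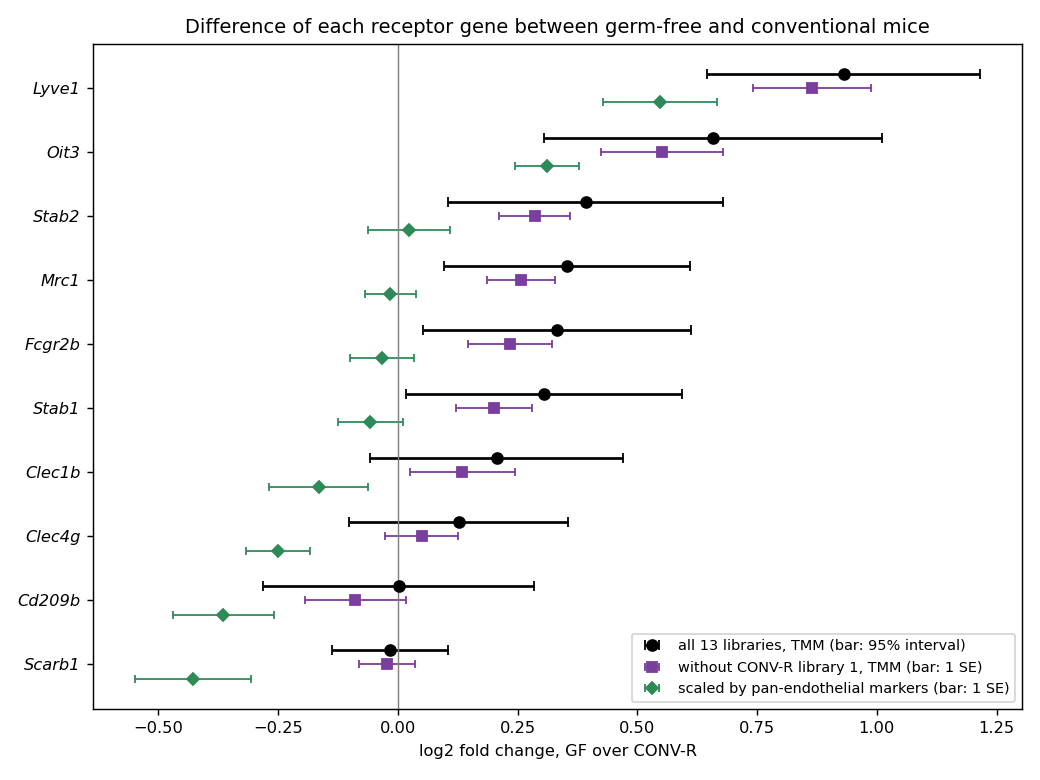
Log2 fold change (GF over CONV-R, horizontal axis) of the 10 receptor genes with all 13 libraries (95% interval), without CONV-R library 1 and after scaling by pan-endothelial markers (each with 1 SE). Lyve1 (0.93, 0.86 and 0.55) and Oit3 (0.66, 0.55 and 0.31) lie right of 0 in all 3, and Stab2 moves from 0.39 to 0.02.

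Within groups the receptor genes did not all vary together. Log2 CPM were centred on each group's mean over the 13 libraries, and the 45 pairs were tested by shuffling libraries within groups (100000 permutations). For 15 pairs Pearson's r had an adjusted permutation p under 0.05, and for 6 of these Spearman's rho did too. The lowest p was that of Mrc1 and Oit3 (r = 0.893, permutation adjusted p = 0.00765, rho = 0.764, permutation adjusted p = 0.0445), with r = 0.819 without CONV-R 1 and 3, the 2 libraries farthest out. Lyve1 varied with Clec1b (r = 0.825, permutation adjusted p = 0.0473, rho = 0.824, adjusted p = 0.0382, and r = 0.794 without CONV-R 6 and 7) and with Clec4g (r = 0.764, adjusted p = 0.0479, rho = 0.846, adjusted p = 0.0382, and r = 0.883 without the same 2). Lyve1 and Stab2, both hyaluronan receptors, gave r = 0.283 (permutation adjusted p = 0.633) and rho = -0.17 (adjusted p = 0.676). The high r of Stab1 with Stab2 (0.927, permutation adjusted p = 0.0479, rho = 0.50, adjusted p = 0.244) rested on CONV-R 1 and 4, without which it was 0.145. Of the 15 pairs, 4 fell under r = 0.5 when their 2 farthest libraries were left out. The CONV-R libraries, with the larger spread given above, weigh more in these r. Within CONV-R and within GF, untested, r was 0.901 and 0.739 for Mrc1 and Oit3, 0.883 and 0.551 for Lyve1 and Clec1b. It was 0.769 and 0.807 for Lyve1 and Clec4g, 0.911 and 0.32 for Fcgr2b and Oit3, and 0.972 and 0.20 for Cd209b and Clec4g. For Clec4g and Clec1b it was 0.869 and 0.493, and for Stab1 and Stab2 0.967 and 0.010. Pairs of other genes were not tested. The points share their library, so depth and cell makeup enter every pair.

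Among 9184 genes of at least 10 CPM, the 2 whose centred log2 CPM were most like each receptor gene over the 13 libraries were as follows, given as Pearson's r without a test. They were Degs1 (0.99) and Rad21 (0.99) for Oit3, Nrp2 (0.98) and Msrb3 (0.97) for Mrc1, and Smim1 (0.97) and Prr5l (0.96) for Fcgr2b. Map1lc3b (0.97) and Gpihbp1 (0.96) were most like Clec4g, Hspg2 (0.96) and Lpp (0.96) most like Stab2, and Cuedc1 (0.95) and Fbxl17 (0.95) most like Stab1. Aes (0.95) and Ndufa12 (0.95) were nearest to Scarb1, Tbc1d20 (0.95) and Nrarp (0.95) to Cd209b, Angpt2 (0.93) and Sptlc1 (0.91) to Clec1b, and Mrpl2 (0.93) and Snapc5 (0.93) to Lyve1. Left out as the 2 farthest libraries, CONV-R 1 and 4 took r down to 0.49 for Hspg2, whereas Rad21 stayed at 0.98 without CONV-R 1 and 3.

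Genes of the same pathways were described from lists, leaving out the 10 receptor genes. Their counts depended on the scaling, and under pan-endothelial scaling, where 2.39% of all genes were called higher and 52.9% lower, they were as follows. In the hyaluronan list 3 of 11 were then higher and 3 lower, among the other scavenger receptors 1 of 14 and 7, in the mannose receptor family 0 of 2 and 1, and among the Fc receptors 0 of 5 and 4. Of the C-type lectin genes 1 of 12 was higher and 6 lower, of the lipoprotein and glycoprotein receptors 0 of 16 and 11, and of the HDL genes 0 of 11 and 7. For apoptotic cell uptake 1 of 11 was higher and 5 lower, for endocytosis 1 of 33 and 15, and for ligands 1 of 6 and 4. With TMM, 11.4% of all genes were called higher and 12.7% lower, at a median of -0.01. The TMM counts of the lists, here and below, were these. In the hyaluronan list, 3 of 11 genes were higher and 1 lower (median 0.14). Hyal1, the lysosomal hyaluronidase gene, rose, with CONV-R between 15.5 and 23.7 CPM and GF between 29.8 and 39.8 (0.79 ± 0.11, edgeR adjusted p = 5.10e-04). Hyal2, the gene of the surface hyaluronidase, ranged from 229 to 366 CPM and from 432 to 565 (0.77 ± 0.12, adjusted p = 0.00114), and Tmem2, also named Cemip2, a cell-surface hyaluronan-degrading protein gene, from 480 to 955 and from 1056 to 1421 (0.66 ± 0.14, adjusted p = 0.00552). The ranges of the 2 groups did not overlap for any of these 3, and all 3 calls were kept under pan-endothelial scaling and whichever library was left out. Cd44, a hyaluronan receptor gene of leukocytes and many other cells, stood at -0.88 ± 0.29 (adjusted p = 0.0389), a call held only without CONV-R 2, 3 or 4 (adjusted p at least 0.0549 and at most 0.0785 for the other 10 libraries left out).

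Of 14 other scavenger receptors of classes A, B and others, 3 were higher and 1 lower (median 0.01). Cd36, a class B receptor gene for fatty acids and oxidised lipoproteins, lay between 551 and 1069 CPM in CONV-R, against 1507 to 1858 in GF (0.90 ± 0.14, edgeR adjusted p = 9.12e-04). Scarb2, the lysosomal class B member gene, had 0.58 ± 0.12 (adjusted p = 0.00538), or 0.20 under pan-endothelial scaling. Colec12, a collectin with scavenger function, had 0.42 ± 0.12 (adjusted p = 0.0209), a call lost without GF 8, 9 or 11 (adjusted p from 0.0518 to 0.0588). Msr1, the class A macrophage scavenger receptor gene, had -0.39 ± 0.14 (adjusted p = 0.0494), a call held only without CONV-R 1 or 2 (adjusted p up to 0.0898 otherwise). Whether Scarb1 differed from these 2 class B genes was not tested.

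The 2 other tested members of the mannose receptor family gave 0 calls in either direction by edgeR, also at an unadjusted p under 0.05 and with DESeq2 and limma-voom, with Pla2r1 at -0.01 ± 0.14 (95% interval -0.32 to 0.29, adjusted p = 0.957). The 5 other Fc receptor genes also gave 0 calls. At an unadjusted p under 0.05, 0 were higher and 2 lower, DESeq2 called 1 lower and limma-voom 0. With library totals edgeR called 2 lower, beside 2773 of all 13915 genes. Fcgrt, the neonatal Fc receptor gene, was the most abundant of them and stood at 0.19 ± 0.10 (95% interval -0.02 to 0.39, edgeR adjusted p = 0.157).

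Of 12 C-type lectin genes related to or neighbouring Cd209b, Clec4g and Clec1b, 3 were higher and 6 lower (median -0.48). Clec14a, an endothelial lectin-like gene, rose (0.59 ± 0.14, edgeR adjusted p = 0.0101), with CONV-R between 555 and 1133 CPM and GF between 1243 and 1485. The paralogs Cd209f (-1.48 ± 0.35, adjusted p = 0.00967) and Cd209g (-1.59 ± 0.36, adjusted p = 0.00757) fell at means of at most 4.10 CPM, while Cd209b in the same gene cluster stood at 0.00. Clec7a, the myeloid dectin-1 gene, fell as well (-1.22 ± 0.28, adjusted p = 0.00826), beside the lower neutrophil and monocyte markers given above. Reads of near-identical Cd209 copies could be shared between them.

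Of 16 other lipoprotein and glycoprotein clearance receptors, 1 was higher and 6 lower (median -0.48). Sorl1 (-1.65 ± 0.35, edgeR adjusted p = 0.00599) and Asgr1, a subunit gene of the hepatocyte asialoglycoprotein receptor (-2.10 ± 0.45, adjusted p = 0.00593), fell, and Sort1, the sortilin gene, rose (0.58 ± 0.13, adjusted p = 0.00752), a call lost under pan-endothelial scaling at 0.21. Among 11 genes of HDL handling next to Scarb1, 1 was higher, the cholesterol exporter gene Abca1 (0.61 ± 0.16, adjusted p = 0.0146, and 0.19 without a call under pan-endothelial scaling), and 4 were lower (median -0.61). Of these, Apoa1 (-2.18 ± 0.45), Lipc (-1.96 ± 0.40) and Lcat (-1.67 ± 0.40) are genes of hepatocytes, whose markers fell from 4863 to 1210 CPM as given above. With the hepatocyte marker sum as a covariate, Apoa1 stood at 0.03 ± 0.14 (edgeR adjusted p = 0.942) and Lcat at 0.15 ± 0.24 (adjusted p = 0.807). That sum includes Apoa1 and largely coincides with the group. Beyond this fit, the part of hepatocytes in these values was not tested.

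Of 11 other genes for uptake of apoptotic cells, 3 were higher and 1 lower (median 0.09). Itgb3, the integrin beta 3 gene, lay between 44.3 and 104 CPM in CONV-R, against 204 to 357 in GF (2.03 ± 0.21, edgeR adjusted p = 5.13e-05), and the bridging protein genes Pros1 (0.42 ± 0.10, adjusted p = 0.0105) and Mfge8 (0.41 ± 0.12, adjusted p = 0.0292) were higher, both near 0 under pan-endothelial scaling. The call of Mfge8 was lost in 8 of 13 cases of 1 library left out (CONV-R 5, 6 and 7 and GF 9 to 13, adjusted p up to 0.0671). Itgav stood at -0.39 ± 0.13 (adjusted p = 0.0449), a call held only without CONV-R 2, 3 or 4 (adjusted p up to 0.0914 otherwise).

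Of 33 genes of clathrin-dependent uptake and endosomal sorting, 9 were higher and 2 lower (median 0.14), beside 11.4% and 12.7% of all genes. With library totals, 5 were higher and 4 lower, beside 971 and 2773 of all 13915 genes. Leaving out 1 library, 4 were higher without GF 9 and 5 without CONV-R 6 or GF 8, 11 or 12, and the count of lower genes ran from 0 to 4. Of all genes, 1013 were then higher without GF 9 and 1137 (GF 12) to 1207 (CONV-R 6) in the other fits named. The count of all lower genes ran from 1208 to 1972 with 1 library left out. Rab4a, a gene of rapid recycling, had 0.91 ± 0.15 (edgeR adjusted p = 0.00114) with CONV-R between 3.27 and 5.603 CPM and GF between 7.52 and 11.03. Rab11a, of the recycling endosome, had 0.46 ± 0.09 (adjusted p = 0.00467), the clathrin adaptor gene Hip1 0.39 ± 0.07 (adjusted p = 0.00182) and Ehd4 0.27 ± 0.05 (adjusted p = 0.00449). The log2 fold change of Hip1 was -0.0016 and the log2 fold change of Ehd4 was -0.15 under pan-endothelial scaling. The 2 lower genes, Epn1 (-0.15 ± 0.05) and Gga3 (-0.33 ± 0.10), were named after their values had been seen.

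Of 6 tested genes for known ligands of the receptors, 1 was higher and 2 lower (median 0.09). Pdpn, the gene of the Clec1b ligand podoplanin, had few counts, between 0.10 and 0.68 CPM in CONV-R and between 0.47 and 3.95 in GF (1.81 ± 0.59, edgeR adjusted p = 0.0411), and its call was lost without GF 10 or 11 or CONV-R 1, 4, 5, 6 or 7, and the log2 fold change lay between 1.02 and 2.10 with 1 library left out. Tgfbi, the gene of an extracellular matrix protein that stabilin-1 takes up, fell (-0.78 ± 0.20, adjusted p = 0.0136). Fga, a hepatocyte fibrinogen gene, fell beside the hepatocyte markers (-2.93 ± 0.56, adjusted p = 0.00343).

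**Figure D5:**
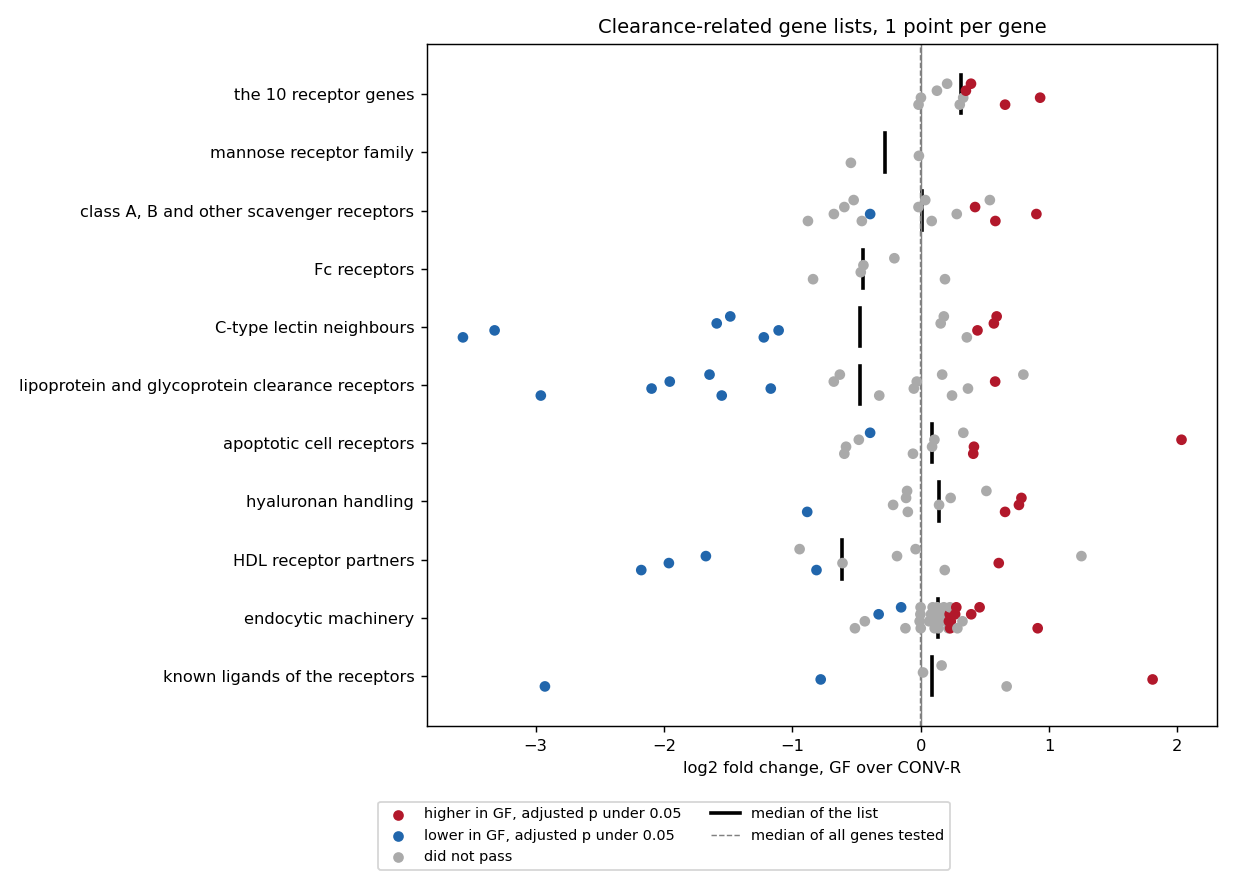
Log2 fold change (GF over CONV-R, horizontal axis) of the 10 receptor genes and of the other genes of each clearance list, 1 point per gene, coloured by direction where edgeR's adjusted p was under 0.05, with the median of each list as a bar. The receptor genes lie between -0.02 and 0.93, the lectin and lipoprotein lists reach further left, and the median of the hyaluronan list is 0.14.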

How the data were processed

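Polyadenylated RNA of liver endothelial cells was sequenced with a stranded kit on an Illumina instrument, per the labels' protocols. Unnormalised counts by gene symbol were deposited for all libraries in a single table. Per the submitters' processing notes it was made with FastQC 0.11.9, STAR 2.7.5a on mm10, featureCounts 2.0.1 and DESeq2 1.42.1, without the role of each being stated. For the annotation, the strand setting and multi-mapped reads, the handling is not given in the sources used here. The table holds 24421 symbols, 18974 of them with a count, and 0 columns of other samples.

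Library totals lay between 7590320 and 35478115 counts. The filterByExpr function (count of 10, total of 15) left 13915 genes, which were scaled by TMM and tested with edgeR 4.0.16 (robust quasi-likelihood, GF against CONV-R, no covariate, biological coefficient of variation 0.264) in R 4.3.3, with Benjamini-Hochberg adjustment over all genes tested and a threshold of 0.05. Alternatives used DESeq2 1.42.0 and limma 3.58.1 (voom with quality weights), other scalings and filters, library subsets, marker sums as covariates and 1 library left out. Ratios (0.5 added to each count) and marker sums were tested by exact two-sided permutation with scipy 1.17.1. Likeness used a prior count of 2 and genes of at least 10 CPM. In simulated data with the real means and library sizes, this fit called 24% of 50 genes changed 1.3-fold, 42% of those changed 1.5-fold, 72% of those changed 2-fold and 96% of those changed 4-fold, and 7.87% of its calls were false. Only these genes of 13915 were changed there, and each gene had the same dispersion in both groups. In the data many more genes were called and the receptor genes spread more in CONV-R, so these shares may not hold.

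The 10 genes and all lists were chosen with earlier results of these data known. By the rule used, the text names all 10, in each list up to 4 other genes past the threshold with the smallest p (where none passed, the most abundant), the 2 genes most like each receptor gene and defining markers of other cell types. Genes named outside the rule are said to be so. A single gene named by the rule is not reported here. Gene positions and exon lengths come from GENCODE M21 (GRCm38) and promoters from RefSeq (GRCm38.p6).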

Additional observations from a re-analysis of the deposited data

Results flagged for a closer look

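Among 62 sets of values (each receptor gene, each summed marker list and 8 ratios between receptor genes, in each group), 8 held a library far from the rest of its group by Dixon's criterion, where chance gives about 1 in 20. Of the receptor genes, Stab2 stood at 2700.7 CPM in CONV-R 1, against 4511.9 to 5589.7 in the other CONV-R libraries, and Mrc1 at 2160.9 CPM, against 3191.5 to 3965.7. In the same library the summed B and plasma cell markers reached 1917.8 CPM (68.8 to 94.6 in the others), the T and NK cell markers 235.44 (48.5 to 80.3) and the dendritic cell markers 398.55 (201.5 to 265.5). In GF 8 the B and plasma cell markers stood at 47.617 CPM (26.3 to 33.7 in the other GF libraries) and the T and NK cell markers at 178.26 (48.0 to 71.1). In GF 11 the stellate cell and fibroblast markers stood at 374.24 CPM (50.9 to 97.0). Receptor results without CONV-R 1 are given beside the main ones.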

How the results depend on the processing

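Lyve1 stayed above 0 under every alternative run, and so did Oit3, which came down to 0.083 (adjusted p = 0.841) with hepatocyte markers as covariate and lost its call there, with the Kupffer covariate, against the number 10 libraries and at a threshold of 0.01. Of 10 receptor genes, 2 were higher with DESeq2 size factors, library totals, pan-endothelial scaling or no filter, 1 against the number 10 libraries, with Kupffer markers as covariate or at a threshold of 0.01, 0 with hepatocyte markers as covariate, and 2 to 4 with 1 library left out, and 3 were lower under pan-endothelial scaling. Of all genes, 971 were higher and 2773 lower with library totals, 333 and 7358 with pan-endothelial scaling, 978 and 1000 against the number 10 libraries, 268 and 244 with the hepatocyte covariate, 634 and 512 with the Kupffer covariate and 629 and 579 at 0.01. With 1 library left out, 1013 (without GF 9) to 1765 (without CONV-R 3) were higher. Hepatocyte sums separate the groups (CONV-R from 1565, GF up to 1487), so that covariate and group largely coincide.

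Log2 fold changes changed sign with the hepatocyte covariate for Apoa1 (0.031), Asgr1 (0.14), Cd44 (0.14), Lcat (0.15), Fcgrt (-0.0067), Clec1b (-0.11), Clec4g (-0.10), Mrc1 (-0.0098), Stab1 (-0.074) and Cd209b (-0.36). With pan-endothelial scaling they did for Cd209b (-0.36), Clec1b (-0.17), Clec4g (-0.25), Ehd4 (-0.15), Fcgr2b (-0.032), Fcgrt (-0.19), Hip1 (-0.0016), Mrc1 (-0.015) and Stab1 (-0.058). Cd209b also stood at -0.00099 with DESeq2, -0.11 with limma-voom, -0.0050 with DESeq2 size factors, -0.091 with library totals, -0.027 at a mean of at least 5 CPM, -0.029 against the number 9 libraries, -0.045 with the Kupffer covariate, -0.15 without CONV-R 1 and 7 (chosen after seeing the data) and -0.088 to 0.041 with 1 library left out. Against the number 9 libraries Pla2r1 stood at 0.11 and Scarb1 at 0.056, and Pla2r1 ran from -0.11 to 0.080 with 1 library left out. Apart from construction (rescaling, fewer libraries), the cause was not tested. By mean log2 CPM the dendritic cell markers were lower in GF (exact permutation adjusted p = 0.0101). Of all 1081 alternative fold changes compared, 872 kept both their sign and whether they were called, and 38 changed sign. Another 163 kept the sign and lost a call, and 8 kept the sign and gained one. No paired analysis was possible because the groups share no replicate numbers.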
